A study of Mus musculus with 6 samples.

Results

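The genes described here are a group of 34 interferon-stimulated genes, set by name from their known induction by interferon: 30 targets of the type I interferons and 4 genes, Gbp2, Gbp3, Igtp and Irgm1, of the guanylate-binding protein (Gbp) and immunity-related GTPase (Irg) families, known above all as targets of interferon gamma. Of the 34, 32 were measured on a probe set that carries their symbol alone, 28 of 30 type I targets and 4 of 4 Gbp and Irg genes, among 18193 genes in all. Isg15 and Ifi44 were not analysed here. The group was chosen with earlier results of these data known. The study compared lung cells of Bmi1 mutant mice with those of Bmi1 wild-type mice on 6 Affymetrix Mouse Genome 430 2.0 arrays, 3 per genotype. Bmi1 belongs to a Polycomb complex that represses genes of development. All mice were females aged 4 months on a mixed Bl6/129 background, and no treatment or infection separates the groups in the labels. Cells positive for CD31, an endothelial surface protein, or CD45, a surface protein of blood cells, and dead cells were to be removed by sorting, and the RNA was amplified to cDNA before labelling. The labels give neither the allele behind the word mutant nor whether an array holds 1 mouse or a pool, so p-values measure only the spread between these samples.

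The sort and the genotype were set against their own markers first. Bmi1 had signals of 1276, 1498 and 1565 on the mutant arrays, against 996, 980 and 1164 on the wild-type arrays (log2 difference 0.46, limma adjusted p = 0.282). The signal was thus not lower in the mutants, and a probe outside a deleted part checks nothing, so the arrays are called mutant-labelled throughout. Ptprc, which encodes CD45, ranged from 5048 to 6708 on the mutant-labelled arrays and from 6639 to 8507 on the wild-type arrays. Pecam1, which encodes CD31, ranged from 2691 to 3185 on the mutant-labelled arrays and from 1907 to 2829 on the wild-type arrays. Both markers that the sort was meant to remove were therefore present on all 6 arrays. Arrays of a genotype correlated at 0.962 to 0.974 over all probe sets except controls on the log2 scale, and arrays of different genotypes at 0.953 to 0.968.

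Interferons are secreted proteins that cells release on sensing viral or bacterial nucleic acids. Type I interferons act through the receptor Ifnar1 and Ifnar2 and a complex that holds Stat2 and Irf9, which binds the interferon-stimulated response element (ISRE) in the promoters of its targets. Interferon gamma, made mainly by natural killer and T cells, acts through Ifngr1 and Ifngr2 and a factor that binds the gamma-activated site (GAS). In the lung, epithelial cells, stromal cells and leukocytes all carry these receptors, and the targets defend the airway and alveoli against viruses.

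The ISRE and GAS motifs were searched in the promoter windows of RefSeq (build GRCm38.p6), which reach from 250 bases before to 50 bases after each annotated start. Windows were found for 24 of the 32 measured members (27 windows), and those of Dhx58, Mx1, Mx2, Oas2, Parp14, Rtp4, Usp18 and Zbp1 were not used here. The ISRE core searched was GAAANNGAAA, which reads TTTCNNTTTC on the opposite strand. The GAS core was TTCNNNGAA, which reads the same on both strands, and matches of either motif were allowed to overlap. The 4 promoters below, cut to the 250 bases before the start, belong to members on which the comparison of genotypes turns: Rsad2 and Gbp2, which had the smallest p-values among the members, and Ifit1 and Igtp, a classical target of each interferon type whose genotypes overlapped. Capitals mark every match. They lie at chr12:26456453-26456702 (minus strand, Rsad2), chr3:142620413-142620662 (plus strand, Gbp2), chr19:34640639-34640888 (plus strand, Ifit1) and chr11:58199306-58199555 (plus strand, Igtp), and each is written 5′ to 3′ on the strand of its gene.
Rsad2: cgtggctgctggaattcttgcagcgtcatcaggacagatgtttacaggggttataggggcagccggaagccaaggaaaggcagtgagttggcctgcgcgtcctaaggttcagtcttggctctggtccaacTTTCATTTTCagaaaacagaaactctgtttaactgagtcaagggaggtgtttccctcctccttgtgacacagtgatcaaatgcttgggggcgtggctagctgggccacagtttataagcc
Gbp2: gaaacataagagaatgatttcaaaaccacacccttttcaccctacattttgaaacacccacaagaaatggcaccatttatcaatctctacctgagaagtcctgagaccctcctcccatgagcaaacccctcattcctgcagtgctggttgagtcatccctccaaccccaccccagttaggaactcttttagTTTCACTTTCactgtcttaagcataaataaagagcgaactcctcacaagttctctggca
Ifit1: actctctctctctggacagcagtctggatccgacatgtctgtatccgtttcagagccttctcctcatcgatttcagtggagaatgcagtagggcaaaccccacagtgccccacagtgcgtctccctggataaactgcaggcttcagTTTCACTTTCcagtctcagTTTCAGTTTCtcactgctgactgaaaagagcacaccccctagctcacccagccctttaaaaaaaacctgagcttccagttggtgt
Igtp: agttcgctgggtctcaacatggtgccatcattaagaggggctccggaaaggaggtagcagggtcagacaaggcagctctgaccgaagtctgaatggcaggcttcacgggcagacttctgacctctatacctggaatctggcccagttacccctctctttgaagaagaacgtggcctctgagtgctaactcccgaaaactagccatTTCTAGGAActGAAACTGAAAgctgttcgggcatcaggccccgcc

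In these letters, Rsad2 carried 1 ISRE core, starting 120 bases before the start, and Gbp2 carried 1, starting 59 bases before it, both on the opposite strand. Ifit1 carried a pair, at 104 and 85 bases before the start. Igtp carried an ISRE core at 34 bases before the start and, directly upstream of it, a GAS core at 45. Over the group, 14 of 24 members (58.33%) held at least 1 ISRE core, against 1079 of 27025 genes (3.99%) with a RefSeq window of the same length. By class this was 4 of 4 Gbp and Irg genes and 10 of 20 type I targets. The GAS core was held by 7 of 24 members (29.17%), against 9.55% of all genes. Of the 20 ISRE matches, 17 lay before the start and 15 within 130 bases before it. They spelled 9 different letter strings, of which GAAACTGAAA was held by 7 members (Bst2, Gbp3, Ifit1, Ifit3, Igtp, Oas1a and Stat2). A match is a description of the letters, not evidence of binding.

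**Figure D1:**
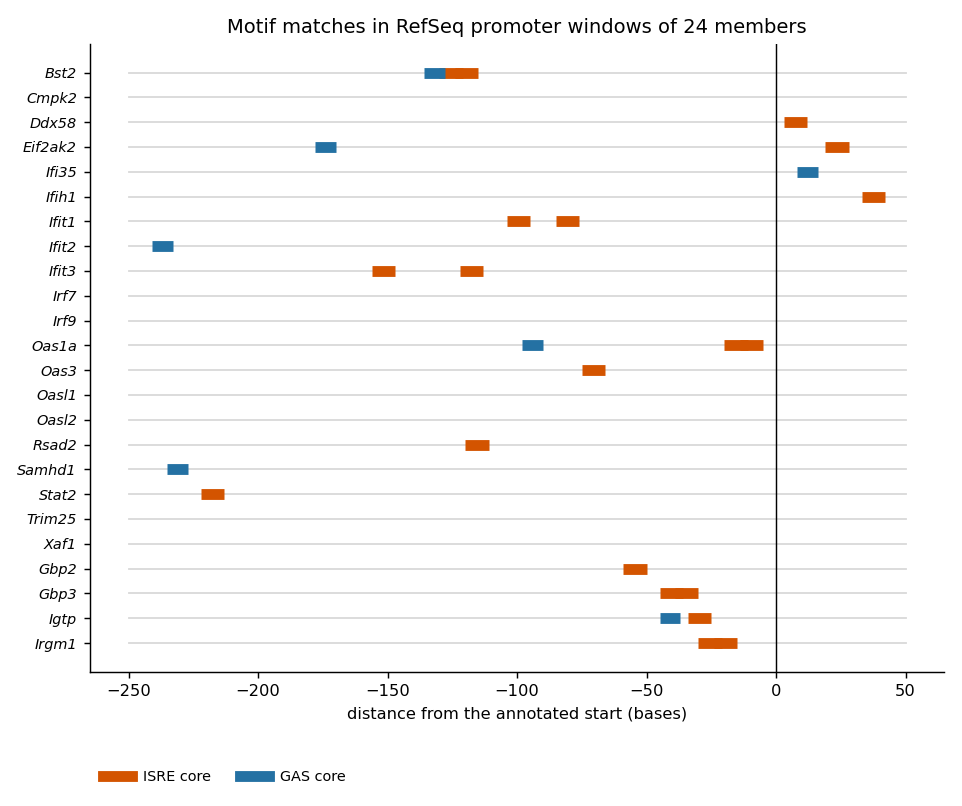
Positions of ISRE core matches (orange) and GAS core matches (blue) in the promoter windows of 24 members. The horizontal axis is the distance from the annotated start in bases, and each row is 1 gene with its windows overlaid. Most ISRE matches, 15 of 20, sit in the last 130 bases before the start.

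None of the 32 members passed the test between genotypes. Signals were compared as log2(signal + 16), mutant-labelled minus wild type, with limma over all 18193 genes and Benjamini-Hochberg adjustment, and an adjusted p below 0.05 counted as a call. Over all genes the fit called 168 (0.923%), 75 higher (0.412%) and 93 lower (0.511%). Among the members the count was 0, with adjusted p-values between 0.252 and 0.990. At an unadjusted p under 0.05 there were 2 members, Rsad2 and Gbp2, against 14.5% of all genes. For 4 of the 32 members the 2 sets of arrays were fully apart, against 20.5% of all genes. The mutant-labelled arrays were on top for Rsad2, Usp18 and Gbp2 (3 members, against 10.4% of all genes) and below for Parp14 (1 member, against 10% of all genes).

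The members' differences were also small in size. The median log2 difference was -0.07 over the 32 members, with 12 above 0 and 20 below, against 0.01 over all genes. They spanned -0.52 (Mx1) to 0.74 (Rsad2), and the median absolute difference was 0.16, against 0.24 over all genes. For 20 of the 32 members the 95% interval of the difference lay within 1 log2 unit of 0 on both sides, so that a change of 1 log2 unit was outside the interval; over all genes 63.4% of intervals did so. For the other 12 members the interval reached past 1 log2 unit in at least 1 direction, and 3 arrays per genotype cannot place them more closely. The absence of calls is thus a statement about these limits, not evidence that the genotypes were equal.

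**Figure D2:**
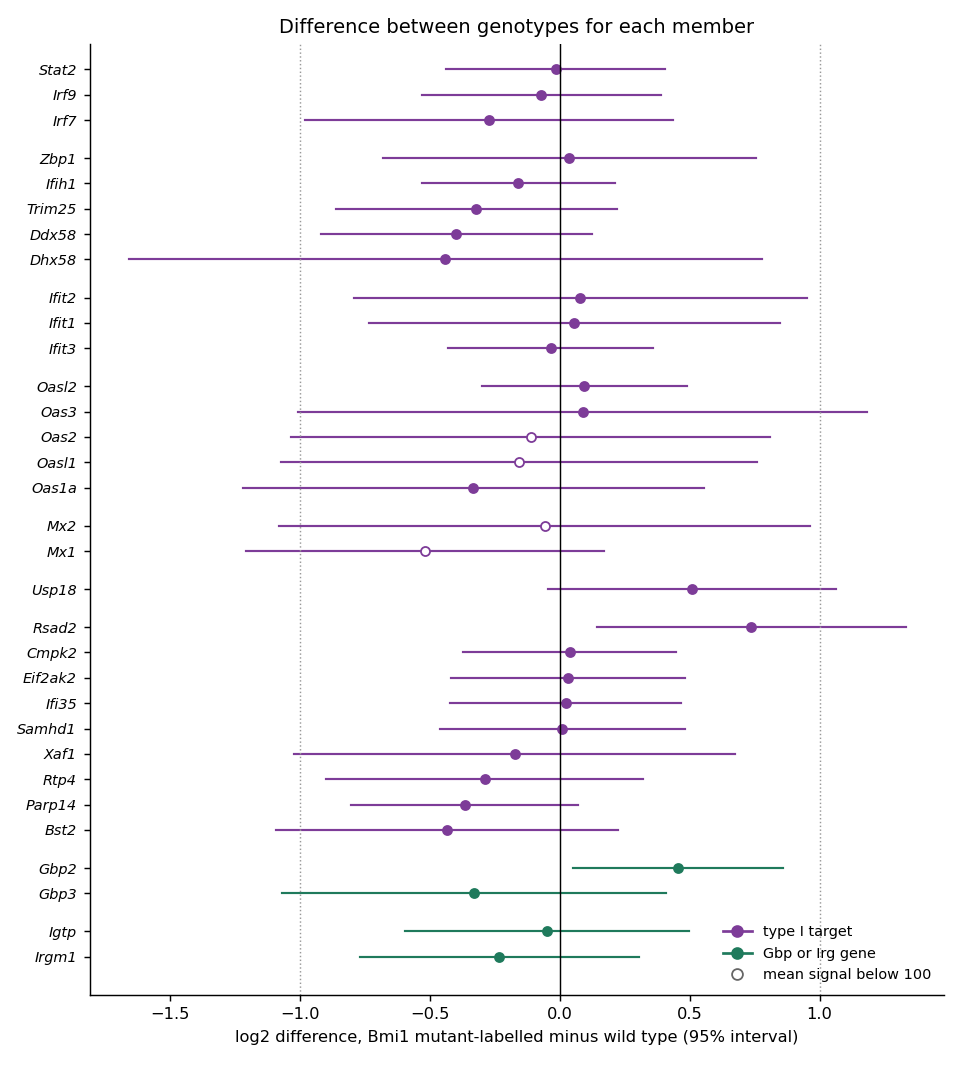
Log2 difference, mutant-labelled minus wild type, for each of the 32 members, with the 95% interval from limma (3 arrays per genotype). Genes are grouped by role, open circles have a mean signal below 100, and dotted lines mark 1 log2 unit. Only the intervals of Rsad2 (0.14 to 1.33) and Gbp2 (0.05 to 0.86) leave out 0.

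Rsad2 encodes viperin, an enzyme of the endoplasmic reticulum that makes a chain-terminating nucleotide and blocks the replication of many viruses. Its signals were 1393, 1467 and 1744 on the mutant-labelled arrays, against 673, 1250 and 894 on the wild-type arrays. Every mutant-labelled array lay above every wild-type array, although the highest wild-type array came close. The log2 difference was 0.74 (SE 0.25, 95% interval 0.14 to 1.33, unadjusted p = 0.0221, limma adjusted p = 0.252), so it did not pass the test. All 3 Rsad2 probe sets lay on the same side, with log2 differences of 0.40, 0.80 and 0.74. The probe sets behind 0.40 and 0.80 were much dimmer, with mean signals of 94.8 and 126, and on each of them the genotypes overlapped. Cmpk2, the neighbouring gene, encodes a mitochondrial nucleotide kinase that supplies viperin's substrate. It had 211, 191 and 251 on the mutant-labelled arrays, against 194, 231 and 209 on the wild-type arrays, with full overlap (log2 difference 0.04). Its second probe set, dim at a mean signal of 49.0, gave 0.96, so the probe sets of Cmpk2 disagreed in size.

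Gbp2, a guanylate-binding GTPase that helps break open vacuoles holding bacteria and parasites, had signals of 2216, 1981 and 1794 on the mutant-labelled arrays, against 1283, 1511 and 1558 on the wild-type arrays. The genotypes did not overlap. The log2 difference was 0.46 (SE 0.17, 95% interval 0.05 to 0.86, unadjusted p = 0.0322, limma adjusted p = 0.290), and the other Gbp2 probe set gave 0.28. On that other probe set the genotypes overlapped, with 983, 932 and 825 on the mutant-labelled arrays, against 618, 811 and 840 on the wild-type arrays. Usp18 removes Isg15, a ubiquitin-like protein, from its targets and damps signalling at the type I receptor. It had 294, 414 and 232 on the mutant-labelled arrays, against 190, 211 and 229 on the wild-type arrays. The lowest mutant-labelled and the highest wild-type value were nearly level, and the log2 difference was 0.51 (SE 0.23, limma adjusted p = 0.379). Parp14, an ADP-ribosyltransferase of macrophages and lymphocytes, had 1959, 2291 and 2165 on the mutant-labelled arrays, against 2463, 3345 and 2541 on the wild-type arrays. It was the only member with all mutant-labelled arrays below all wild-type arrays (log2 difference -0.37, SE 0.19, limma adjusted p = 0.427), and its second probe set gave -0.04.

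The transcription factors that carry the response overlapped between genotypes. Irf7, the factor that amplifies type I interferon production and is itself strongly induced, had signals of 229, 172 and 185 on the mutant-labelled arrays, against 151, 347 and 254 on the wild-type arrays. The wild-type arrays held both the lowest and the highest value (log2 difference -0.27, 95% interval -0.98 to 0.43). Irf9, the DNA-binding subunit of the ISRE-binding complex, had 570, 428 and 552 on the mutant-labelled arrays, against 459, 563 and 608 on the wild-type arrays (log2 difference -0.07). Stat2, its partner, had 227, 220 and 256 on the mutant-labelled arrays, against 284, 219 and 212 on the wild-type arrays (log2 difference -0.02). The intervals of all 3 factors stayed within 1 log2 unit of 0.

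Among the sensors, Ddx58 encodes RIG-I, which recognises viral RNA ends in the cytosol. It had signals of 514, 308 and 450 on the mutant-labelled arrays, against 510, 585 and 564 on the wild-type arrays, and its 3 probe sets all had log2 differences below 0 (-0.40, -0.79 and -0.36). The groups still overlapped, by a single mutant-labelled array. Ifih1 encodes MDA5, a sensor of long double-stranded RNA, and had 574, 496 and 592 on the mutant-labelled arrays, against 616, 592 and 651 on the wild-type arrays (log2 difference -0.16). Dhx58 encodes LGP2, a regulator of both sensors. Its second mutant-labelled array stood at 33.3, below the other mutant-labelled arrays at 133 and 188 and the wild-type arrays at 126, 187 and 114, and the interval of its log2 difference (-0.44) ran from -1.66 to 0.78. Zbp1, a sensor of Z-form nucleic acids that can start necroptosis, had 497, 493 and 568 on the mutant-labelled arrays, inside the wild-type spread of 316, 736 and 550. Trim25, a ubiquitin ligase that activates RIG-I in human cells, had 5709, 9061 and 6689 on the mutant-labelled arrays, against 8324, 7768 and 10474 on the wild-type arrays. Its 3 probe sets had log2 differences of -0.32, -0.65 and -0.59, none of the 5 genes in this role was called, and 4 of the 5 lay below 0.

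The IFIT proteins bind viral RNA and hold back its translation. Ifit1 had signals of 449, 818 and 800 on the mutant-labelled arrays, against 426, 805 and 761 on the wild-type arrays, with the first replicate of each genotype low. Ifit2 had 626, 396 and 586 on the mutant-labelled arrays, against 620, 701 and 280 on the wild-type arrays. Ifit3 had 585, 590 and 536 on the mutant-labelled arrays, against 646, 613 and 504 on the wild-type arrays. The log2 differences were 0.06, 0.08 and -0.04, and all 3 intervals stayed within 1 log2 unit of 0.

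The OAS enzymes make oligoadenylates that switch on the antiviral ribonuclease RNase L. Oas1a had signals of 453, 271 and 688 on the mutant-labelled arrays, against 447, 808 and 482 on the wild-type arrays. Oas3 had 281, 437 and 387 on the mutant-labelled arrays, inside the wild-type spread of 159, 631 and 383. The arrays of 1 genotype thus lay further apart than the genotypes did, and the log2 differences were -0.33 and 0.09. Oasl2, an OAS-like protein, was steadier, with 294, 326 and 303 on the mutant-labelled arrays, against 275, 259 and 333 on the wild-type arrays. Oas2 and Oasl1, which in mice restrains Irf7 translation, had mean signals below 100, as did the dynamin-like GTPases Mx1 and Mx2, which trap viral particles. For such dim genes, the offset of 16 shrinks the difference. Mx1 had 24.9, 30.8 and 42.9 on the mutant-labelled arrays, against 87.6, 37.3 and 44.3 on the wild-type arrays, with the first wild-type array standing apart (log2 difference -0.52). Mx2 ranged from 2.72 to 50.5 on the mutant-labelled arrays and from 21.9 to 24.7 on the wild-type arrays.

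The remaining type I effectors overlapped as well. Bst2 encodes tetherin, which holds budding virions on the cell surface, and had signals of 385, 410 and 754 on the mutant-labelled arrays, against 695, 595 and 733 on the wild-type arrays. Its replicates 1 and 2 on the mutant-labelled side lay below all wild-type arrays and the third lay above them (log2 difference -0.44). Samhd1 hydrolyses deoxynucleotides and was bright on every array, at 4393, 4443 and 4656 on the mutant-labelled arrays, against 3756, 5709 and 4152 on the wild-type arrays (log2 difference 0.01). Eif2ak2 encodes PKR, a kinase that stops translation on sensing double-stranded RNA, and had 965, 1213 and 1201 on the mutant-labelled arrays, against 1162, 920 and 1230 on the wild-type arrays (log2 difference 0.03). Xaf1, a pro-apoptotic protein, had 1019, 677 and 1241 on the mutant-labelled arrays, against 1105, 1621 and 689 on the wild-type arrays. Rtp4, a receptor chaperone that binds viral RNA, and Ifi35, a signalling modulator, had log2 differences of -0.29 and 0.02. The second Rtp4 probe set gave 0.10, and the other Ifi35 probe sets gave -0.08 and 0.43. Those other Ifi35 probe sets had mean signals of 848 and 718, against 7797 on the one used. The probe sets used for Ifi35 and Trim25 carry the suffix _s_at, which marks probes that several transcripts may share. Across all members, 14 had more than 1 probe set, and for 7 of these the probe sets differed in sign, so a sign near 0 should not be read.

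**Figure D3:**
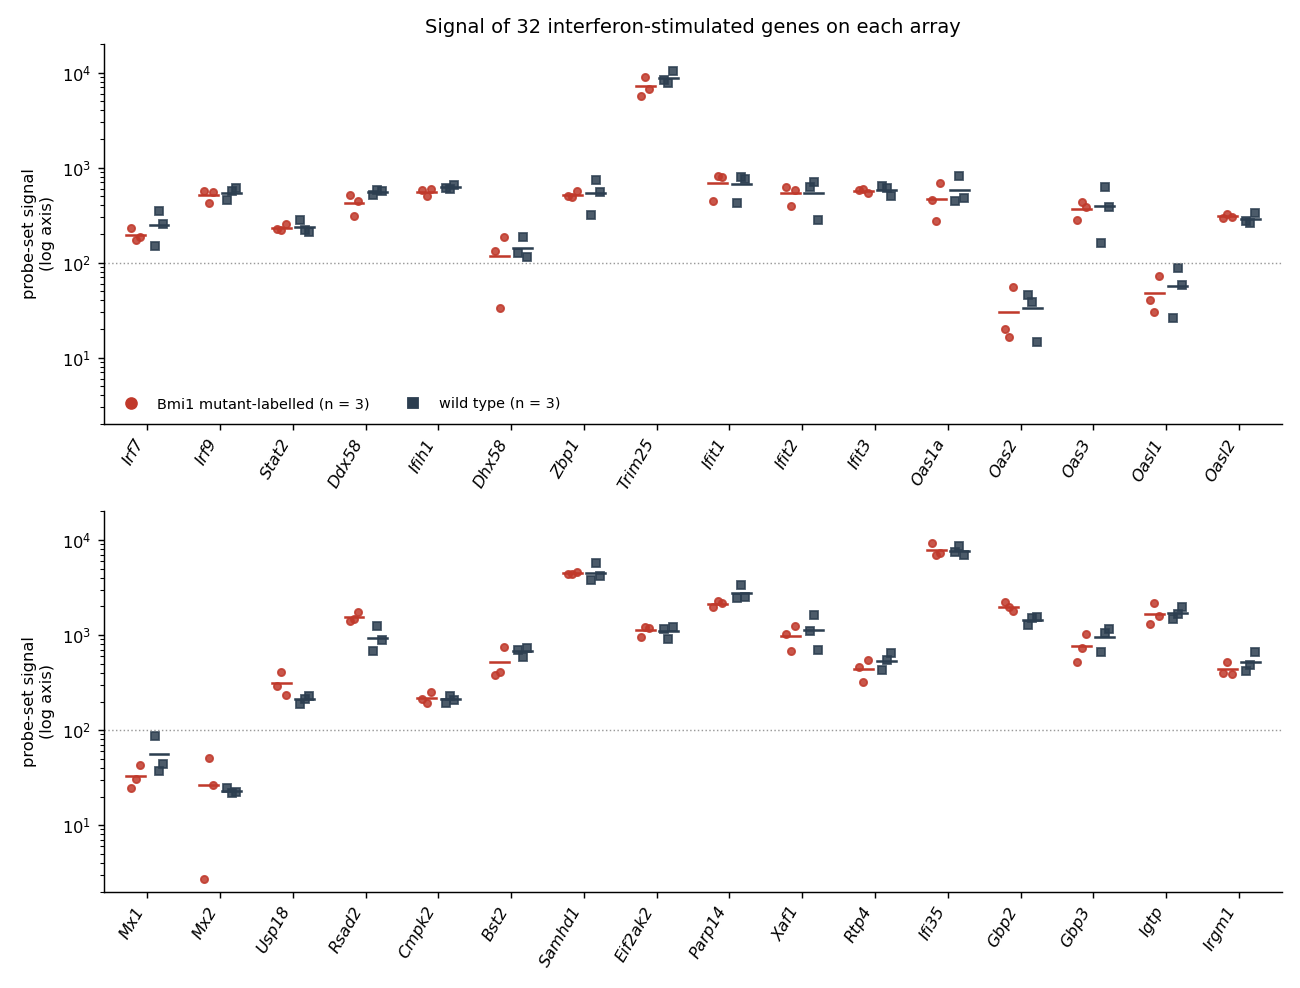
Probe-set signal (log axis) of the 32 members on each of the 6 arrays, with mutant-labelled arrays as circles left of wild-type arrays as squares, short lines at the mean and a dotted line at a signal of 100. Apart from Rsad2, Usp18, Gbp2 and Parp14, the symbols of the genotypes overlap for every gene.

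None of the 4 Gbp and Irg genes was called, and only the interval of Gbp2 left out 0. Gbp2 lay higher on the mutant-labelled arrays, as given above, while Gbp3, a relative in the same cluster on chromosome 3, had signals of 524, 732 and 1027 on the mutant-labelled arrays, against 663, 1049 and 1148 on the wild-type arrays (log2 difference -0.33). Igtp, also called Irgm3, which regulates GTPases on vacuoles that hold pathogens, had 1314, 2155 and 1582 on the mutant-labelled arrays, against 1495, 1665 and 1991 on the wild-type arrays (log2 difference -0.05). Irgm1, its relative with a role in autophagy, had 399, 525 and 390 on the mutant-labelled arrays, against 417, 487 and 662 on the wild-type arrays (log2 difference -0.23). The median of the 4 was -0.14, against -0.07 for the 28 type I targets, a gap that is small beside the spread of either class (-0.33 to 0.46 and -0.52 to 0.74). The difference between the classes was not tested, since 4 genes chosen by name are not replicates.

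Median genotype differences lay close together for members with and without a motif, and the gap was not tested. Members without a window are missing here, among them Usp18 (log2 difference 0.51), Parp14 (-0.37), Mx1 (-0.52) and Dhx58 (-0.44). The 14 members with an ISRE core had a median log2 difference of -0.04 (-0.44 to 0.74), and the 10 with a window but no core had -0.03 (-0.32 to 0.09). The 7 with a GAS core had 0.01, against -0.07 for the 17 without.

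Within each genotype, the type I targets and the Gbp and Irg genes tended to peak on different arrays. This pattern was chosen after the values were seen and has no test. Among the 28 type I targets, the mutant-labelled replicate 3 was the highest of its genotype for 14 (50%), and the wild-type replicate 2 for 15 (53.6%). Over all genes these shares were 35.0% and 32.3%. Both held at once for 8 of the 28, or 28.6%, against 10.6% of all genes. Oas1a, with 688 on the mutant-labelled replicate 3 and 808 on the wild-type replicate 2, is an example. Of 45 further type I targets, 19 (42.2%) were highest on the mutant-labelled replicate 3 and 21 (46.7%) on the wild-type replicate 2. Their median deviation from the genotype mean was nearly level on wild-type replicates 2 and 3 (0.0501 and 0.0511), so the pattern was weaker there. Of the 4 Gbp and Irg genes, 2 were highest on the mutant-labelled replicate 2 within that genotype and all 4 on the wild-type replicate 3, against 34.7% and 33.1% of all genes. The same arrays led the 7 other Gbp and Irg genes measured, with 6 highest on the mutant-labelled replicate 2 and 5 on the wild-type replicate 3. Iigp1, an effector GTPase that loads onto vacuoles, had 1324, 3096 and 1577 on the mutant-labelled arrays, against 1946, 1589 and 2851 on the wild-type arrays. Irgm2, a regulator of such effectors, had 2278, 4136 and 2875 on the mutant-labelled arrays, against 3103, 2578 and 3395 on the wild-type arrays. Cell type markers peaked on some of the same arrays. Of 6 neutrophil markers, 5 were highest of all 6 arrays on the mutant-labelled replicate 2. On the wild-type replicate 2, 4 of 4 B cell, 5 of 7 natural killer cell and 3 of 5 T cell markers were highest of all 6 arrays. Over all genes, 3710 of 18193 were highest on the mutant-labelled replicate 2 and 2912 on the wild-type replicate 2. These counts rank all 6 arrays, not those of a genotype as above. The neutrophil markers lay wholly higher and the B cell and natural killer cell markers wholly lower on the mutant-labelled arrays. Only arrays of 1 genotype could thus be highest for each of these lists. On the mutant-labelled replicate 3, 0 of the 6 neutrophil markers were highest. Of 7 monocyte and macrophage markers, 3 were highest on the wild-type replicate 3 and 1 on the wild-type replicate 2. Another 2 were highest on the mutant-labelled replicate 2 and 1 on the mutant-labelled replicate 3. Markers of other cells peaked on these arrays too. Of 6 fibroblast markers 3, and of 4 alveolar type 2 markers 2, were highest of all 6 arrays on the mutant-labelled replicate 2. Of 3 club cell markers, 2 were highest on the wild-type replicate 2. Elsewhere, 4 of 6 smooth muscle and pericyte markers peaked on the mutant-labelled replicate 1 and 3 of 5 endothelial markers on the wild-type replicate 1. The part of these cells in the pattern was not tested, and members share their arrays, so the members are not independent of each other.

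**Figure D4:**
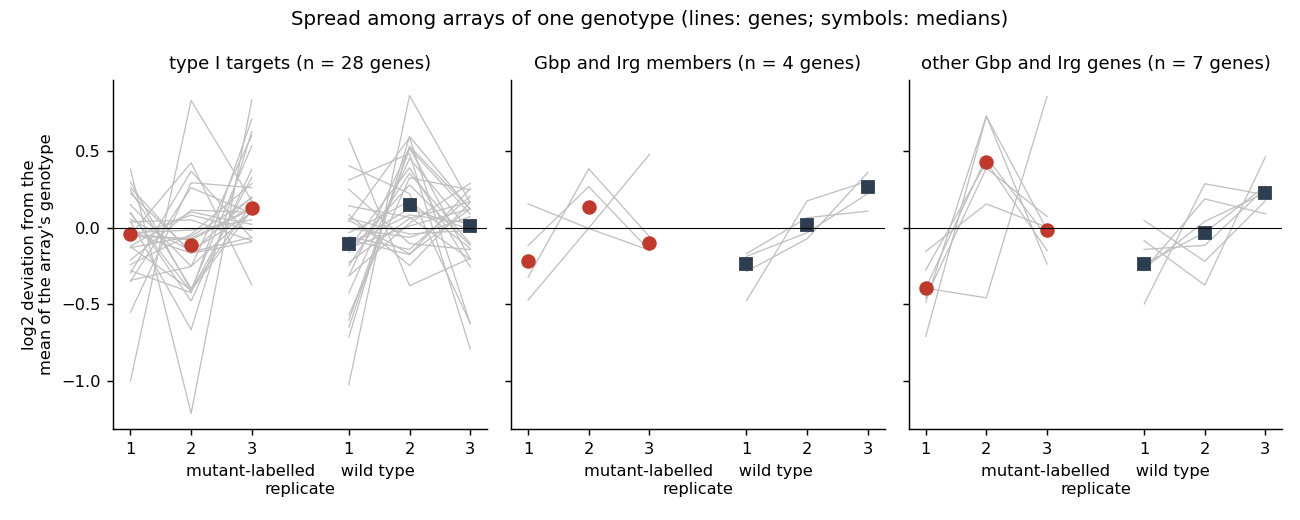
Deviation of each gene from the mean of its genotype on the log2(signal + 16) scale, for the 28 type I targets, the 4 Gbp and Irg members and 7 other Gbp and Irg genes. Grey lines join 1 gene's arrays of a genotype and symbols are medians over genes, with the mutant-labelled arrays left of the wild-type arrays. The type I median is highest on mutant-labelled replicate 3 and wild-type replicate 2, and both Gbp and Irg medians on mutant-labelled replicate 2 and wild-type replicate 3.

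The ligand of the Gbp and Irg genes did differ. Ifng, which encodes interferon gamma, had signals of 478, 369 and 346 on the mutant-labelled arrays, against 1582, 1767 and 1210 on the wild-type arrays. All mutant-labelled arrays lay far below all wild-type arrays, with means of 398 ± 70.7 and 1520 ± 284 (SD, n = 3 each; log2 difference -1.89, SE 0.22, limma adjusted p = 0.0225). With each of the 6 arrays left out in turn the direction held, but the limma adjusted p lay between 0.0536 and 0.0974. In such bulk samples, fewer cells of a type and less RNA per cell cannot be told apart. Ifng was the only 1 of 10 measured interferon ligands that was called and the only one with a mean signal of 100 or more. Next by p were 2 type I ligands, both dim. Both were read from probe sets with the suffix _x_at, whose probes other transcripts may share. Their values may thus not belong to the named ligands alone. Ifna1 had 45.3, 91.9 and 80.0 on the mutant-labelled arrays, against 154, 112 and 104 on the wild-type arrays, wholly lower but not called (log2 difference -0.68, unadjusted p = 0.0375, limma adjusted p = 0.307). Ifnab had 2.03, 3.51 and 10.2 on the mutant-labelled arrays, against 24.5, 24.98 and 8.16 on the wild-type arrays, with overlap (log2 difference -0.71, unadjusted p = 0.0346, limma adjusted p = 0.300). Ifnb1, the type I interferon made first after infection, ranged from 2.90 to 3.77 on the mutant-labelled arrays and from 3.04 to 5.43 on the wild-type arrays. Signals so far below the offset of 16 allow no statement about its level.

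Of 16 measured receptor and signalling genes, 1 was called, Irf8, a transcription factor of dendritic cells, B cells and macrophages that interferon gamma induces. It had signals of 838, 1280 and 1070 on the mutant-labelled arrays, against 2764, 3525 and 3354 on the wild-type arrays, with no overlap (log2 difference -1.60, SE 0.21, limma adjusted p = 0.0303). With each array left out in turn its limma adjusted p lay between 0.0508 and 0.132. The 4 receptor chains Ifnar1, Ifnar2, Ifngr1 and Ifngr2 had log2 differences of 0.10, 0.21, -0.15 and 0.32, and none was called. Tyk2, a kinase bound to Ifnar1, had a log2 difference of -0.62 (limma adjusted p = 0.170), and Socs3, an inhibitor of cytokine signalling, had 0.54 (limma adjusted p = 0.185). None of the 12 genes of nucleic acid sensing upstream of the interferons was called, and the smallest p belonged to Mavs, the adaptor of RIG-I and MDA5 (log2 difference -0.71, limma adjusted p = 0.201).

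Further genes known as interferon targets were not called either. Of 45 further type I targets, 0 were called. However, 16 of the 45 had an unadjusted p under 0.05, against 14.5% of all genes. The mutant-labelled arrays lay wholly above the wild-type arrays for 6 of the 45 and wholly below for 9, against 20.5% of all genes for both directions together. The smallest p-values belonged to Herc6, the main ligase for Isg15 in mice (log2 difference -1.03, limma adjusted p = 0.104), Ifitm1, which blocks viral entry (1.47, limma adjusted p = 0.115), and Sp100, a nuclear body protein (-0.76, limma adjusted p = 0.138). Their median was -0.06. Of 7 further Gbp and Irg genes and 15 further targets of interferon gamma, 0 were called in either list, with 1 gene of each at an unadjusted p under 0.05 and medians of -0.14 and -0.04. Gbp8 had 51.9, 106 and 82.0 on the mutant-labelled arrays, against 167, 210 and 241 on the wild-type arrays (log2 difference -1.24, limma adjusted p = 0.0930). Nlrc5, which drives MHC class I genes, had 431, 786 and 614 on the mutant-labelled arrays, against 931, 990 and 1006 on the wild-type arrays (log2 difference -0.70, limma adjusted p = 0.247). Both lay lower on every mutant-labelled array and neither passed the test.

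Some marker lists of cell types that make or answer interferon differed between the genotypes, and others did not. These lists were chosen with earlier results of these data known, so their counts of calls are a description. All 7 measured natural killer cell markers were called lower, with a summed signal of 1952 to 3895 on the mutant-labelled arrays, against 11939 to 18354 on the wild-type arrays. Among them, Klra7 and Klra8 were read from probe sets with the suffix _x_at, whose probes other transcripts may share. All 4 B cell markers were called lower (551 to 857 on the mutant-labelled arrays, 4041 to 5140 on the wild-type arrays), as were 1 of 5 T cell markers, Cd8a (list sums 3084 to 3949 and 5246 to 8385), and 2 of 5 dendritic cell markers (2062 to 2410 and 4465 to 4959). Of 7 markers of plasmacytoid dendritic cells, the main makers of type I interferon, Siglech and Ccr9 were called lower. Siglech had 58.0, 42.9 and 32.7 on the mutant-labelled arrays, against 138, 239 and 209 on the wild-type arrays (log2 difference -1.79, limma adjusted p = 0.0361). In all, 4 of the 7 lay wholly lower on the mutant-labelled arrays, against 10% of all genes. The median deviation of the 7 from their mean over all arrays was -0.30 to -0.14 log2 units on the mutant-labelled arrays and 0.15 to 0.24 on the wild-type arrays. Their summed signal overlapped (4377 to 5167 on the mutant-labelled arrays, 4371 to 4946 on the wild-type arrays), and Tcf4, which was not called, made up most of it. Of 6 neutrophil markers 1 was called higher (list sums 20275 to 40561 on the mutant-labelled arrays, 10390 to 14400 on the wild-type arrays), and of 7 monocyte and macrophage markers 0 were called (34926 to 47254 and 36569 to 44061). All 6 neutrophil markers lay wholly higher on the mutant-labelled arrays, against 10.4% of all genes. Stromal markers shifted too. Of 6 fibroblast markers 1 was called higher, Col1a1, with list sums of 31007 to 35017 on the mutant-labelled arrays and 15520 to 25334 on the wild-type arrays. Of 6 smooth muscle and pericyte markers 0 were called by limma (list sums 9485 to 11229 and 2223 to 7955). However, all 6 had an unadjusted p under 0.05, against 14.5% of all genes. On the mutant-labelled arrays 5 of them lay wholly higher, against 10.4% of all genes. None of the endothelial, alveolar, club and ciliated cell markers was called. An unadjusted p under 0.05 was found for 1 of 5 alveolar type 1, 1 of 3 club and 1 of 4 ciliated cell markers, against 14.5% of all genes. The largest log2 difference of the alveolar type 1 markers was 1.51, and their smallest limma adjusted p was 0.0530. With an offset of 64, 1 alveolar type 1 marker was called higher, and with a variance trend 1 club cell marker was called lower. With each array left out in turn, 0 to 6 natural killer and 1 to 3 B cell markers were called lower, fewest without wild-type replicate 2. The T cell call held only without wild-type replicate 1 and the neutrophil call only without mutant-labelled replicate 3. Of the dendritic cell markers, 0 or 1 was called, with 0 without wild-type replicate 2 or 3, and no fibroblast marker was called in any of the 6 fits. Siglech had limma adjusted p-values of 0.0504 to 0.142 in these fits. The lowest single signals on the mutant-labelled arrays were 1.12 among natural killer cell, 2.68 among dendritic cell and 4.37 among B cell markers. On the wild-type arrays the lowest were 153, 44.8 and 138. Signals so far below the offset allow no statement about whether a marker was still present. The part of these shifts in the signals of Ifng, Irf8 and the members was not tested.

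**Figure D5:**
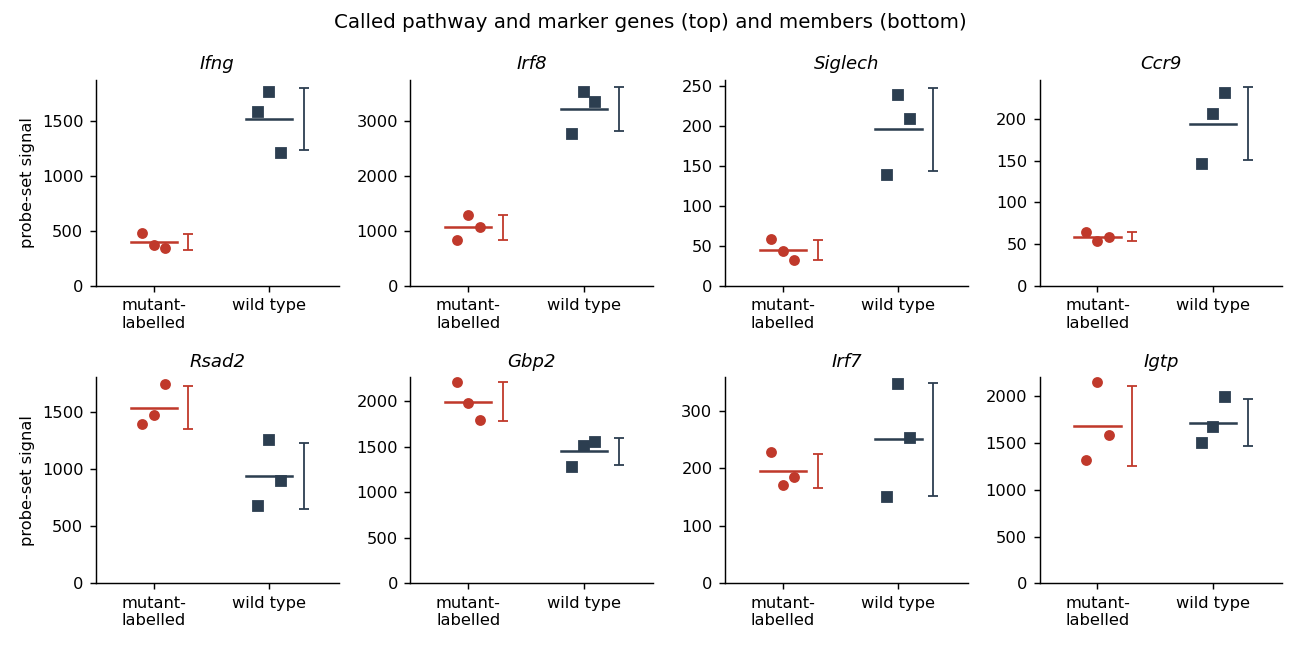
Probe-set signal on each array for Ifng, Irf8, Siglech and Ccr9 (top row) and for the members Rsad2, Gbp2, Irf7 and Igtp (bottom row), mutant-labelled left of wild type, with the mean and the SD of 3 arrays beside the points. The 4 genes of the top row are lower on all mutant-labelled arrays, and Irf7 and Igtp overlap.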

How the data were processed

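RNA of 6 sorted lung cell samples, 3 per genotype, was measured on 1-colour arrays. The authors deposited linear probe-set intensities. Per the submitters' processing notes, the software was Affymetrix Expression Console 1.1. How probes were summarized and background was handled is not given in the sources used here. The trimmed mean (2% cut at each end) of every array was 500.002, so the deposited intensities were scaled to a common mean, which hides any shift common to all genes. The number of arrays limits the precision.

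Of 45101 probe sets, 64 controls were left out. The platform annotation gave 1 symbol to 34945 of the rest, several to 932 and none to 9160, and only the first kind was used. Each gene was read from its brightest probe set (mean log2 over the 6 arrays), which gave 18193 genes. Intensities were turned to log2(signal + 16) and fitted with lmFit and eBayes of limma 3.58.1 (R 4.3.3), without covariates, with p-values adjusted by Benjamini-Hochberg across the whole table. All p-values and intervals in the text come from this fit, except p-values given for a named alternative or with an array left out. On simulated data with 18193 genes and 3 samples per group, the fit called 23% of genes changed by 1 log2 unit, 69.3% at 2 and 87.4% at 3.

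The members and the gene lists (243 entries, 212 measured) were chosen with earlier results of these data known. Every member is named, and of each further pathway list the called genes and up to 3 with the smallest p; the receptor chains, Ifnb1, Iigp1 and Irgm2 were named outside this rule. Same-numbered arrays deviated together with correlations of only 0.0735, 0.0485 and 0.0319, and no label says that a number marks a shared source, so the numbers were not taken as pairs. Alternatives were other offsets, normalizations, a filter on dim genes, another probe-set rule, a variance trend, array weights, a replicate block and leaving out each array. Promoter windows came from RefSeq and were searched with Python 3.11.15.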

Additional observations from a re-analysis of the deposited data

How the results depend on the processing

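Across the 15 alternatives, 0 members were called in every one, and the smallest adjusted p of a member ranged from 0.142 (variance trend) to 0.438 (without wild-type replicate 3), with 1 to 3 members at an unadjusted p under 0.05. The medians of the type I targets and of the Gbp and Irg genes stayed small, from -0.17 to 0.01 and from -0.28 to 0.01. Over all genes the counts called, 75 higher and 93 lower, were 16 and 22 (offset 1), 120 and 144 (offset 64), 145 and 163 with only genes of a mean signal of at least 100, and 188 and 195 with a variance trend. Leaving out 1 array gave 1 to 35 higher and 1 to 41 lower, the lowest without wild-type replicate 2. With the replicate block 0 genes were called either way by limma, and 2611 had an unadjusted p under 0.05. Ifng and Irf8 kept their direction in every alternative and were called in 7 of 15. They missed the threshold with an offset of 1 (adjusted p = 0.0586 and 0.0797), with the replicate block (0.0774 for both) and with each array left out in turn (0.0536 to 0.0974 for Ifng and 0.0508 to 0.132 for Irf8). Siglech and Ccr9 were likewise called in 7 of 15. With 3 arrays per genotype and 1 probe set per gene, small differences of dim genes such as Mx1, Mx2, Oas2 and Oasl1 cannot be resolved.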
